A study of Homo sapiens and Mus musculus with 69 samples.

Results

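The RNA of 10 regulated cell death genes was followed in small cell lung cancer (SCLC) lines in which Notch signaling was turned on: the death receptor genes *FAS* and *TNFRSF10B*, the initiator caspase genes *CASP8* and *CASP10*, the necroptosis genes *RIPK1*, *RIPK3* and *MLKL*, and the pyroptosis genes *CASP1*, *CASP4* and *GSDMD*. They were chosen by symbol, as genes of caspase-8 signaling and of the lytic death programs that it holds in check or that run beside it, and they are 10 of 20516 genes in the human data. The mouse data hold 9 of them among 18501 genes, with no row for *Casp10*. Of the 10, 7 were high enough to be tested in H82, H69 and COR-L88 cells, 5 in H524 cells and 2 in mouse KP1 cells, and the others are given by their values.

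*FAS* and *TNFRSF10B* (the TRAIL receptor DR5) are cell surface receptors that recruit caspase-8 or caspase-10, through an adaptor, to start apoptosis. Active caspase-8 also cleaves RIPK1 and RIPK3; when it is missing or blocked, RIPK3 phosphorylates the pseudokinase MLKL, which breaches the plasma membrane in necroptosis. In pyroptosis the inflammatory caspases, caspase-1 downstream of inflammasomes and caspase-4 after binding bacterial lipopolysaccharide, cut gasdermin D into a pore-forming fragment, and low or silenced caspase-8 is a known trait of neuroendocrine SCLC.

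The data comprised 69 libraries in 23 groups of 3: 60 libraries of 4 human SCLC lines and 9 of KP1, a mouse SCLC line. H82, H524 and H69 cells carried a doxycycline-inducible vector for the intracellular domain of NOTCH1 (N1ICD), and H524 cells also, separately, one for the transcriptional repressor REST. Vector cells were sequenced without doxycycline and after long-term doxycycline (1 ug/mL, at least 28 days), beside parental cells without a vector. COR-L88 and KP1 cells, which carried no overexpression vector, received DMSO, the LSD1 inhibitor TAS1440 (100 nM; 28 days in COR-L88 and more than 28 days in KP1), or TAS1440 plus a gamma-secretase inhibitor (GSI), which blocks the release of the Notch intracellular domain: BMS-708163 at 2 uM in COR-L88 and DBZ at 10 uM in KP1. H82 N1ICD cells were further sequenced with *REST* KO or with *STING1* KO, each without and with doxycycline (56 days where *REST* KO was compared), and COR-L88 cells with *STING1* KO under DMSO and under TAS1440. STING1 is the adaptor of cytosolic DNA sensing that switches on interferon signaling. The KO cells were made with a single guide per gene and single-cell clones were derived, but which clone or clones were sequenced is not given in the sources used here. The labels also do not say whether the 3 libraries of a group came from separate cultures, so the *P* values below measure only the spread between these libraries.

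Values are log2(RPKM + 1), RPKM being reads scaled by gene length and library size, and they are called levels below. Differences on this scale understate the change of genes near 0. A gene was called higher or lower where its difference was at least 1 with an adjusted *P* under 0.05 (limma, Benjamini-Hochberg adjustment over all genes tested in that line). In the overexpression experiments the cells collected after doxycycline were the adherent ones, recovered with trypsin, so the choice of that fraction and the response to doxycycline cannot be told apart. These are bulk RNA levels, so fewer cells of a type and less RNA per cell cannot be told apart, and protein and cleavage were not measured here.

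*CASP8* and *CASP10* lie next to each other on chromosome 2 (GRCh37, plus strand): *CASP10* at chr2:202047595-202094151 and *CASP8* at chr2:202098166-202226559, 4014 bases further on. *CASP4* (chr11:104813593-104840093) and *CASP1* (chr11:104896124-104905977), both on the minus strand, are neighbors on chromosome 11, 56030 bases apart. The remaining genes have no neighbor within the set: *RIPK1* at chr6:3064058-3115421 (plus), *FAS* at chr10:90750414-90775542 (plus), *RIPK3* at chr14:24805231-24809228 (minus), *MLKL* at chr16:74705753-74734858 (minus), and on chromosome 8 *TNFRSF10B* (chr8:22877646-22926544, minus) and *GSDMD* (chr8:144635377-144645232, plus). *CASP8* overlaps *FLACC1*, *FAS* overlaps *ACTA2* and *TNFRSF10B* overlaps *RHOBTB2*, each on the opposite strand. The library kit keeps the strand, but whether counting used it is not given in the sources used here. *CASP1* shares near-identical exons with *CARD16* and *CARD17*, so its reads may be divided among them.

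The labels were checked first. The *NOTCH1* level, which includes reads of the transgene, was 1.16 ± 0.29 (SD, n = 3) without and 4.86 ± 0.66 with doxycycline in H82, 1.20 ± 0.38 and 8.06 ± 0.42 in H524 N1ICD cells, and 0.39 ± 0.01 and 7.99 ± 0.08 in H69. *REST* mRNA was still present in the cells labelled *REST* KO (5.26 ± 0.54 with doxycycline, against 6.31 ± 0.18 without the KO). *STING1* mRNA (listed as *TMEM173*) was 1.61 ± 0.39 in doxycycline-treated H82 cells labelled *STING1* KO against 1.11 ± 0.05 in intact ones, and 1.07 ± 0.10 against 2.20 ± 0.29 in COR-L88 cells under TAS1440. An edit that removes a protein need not remove its mRNA, so these rows do not check the KO. Of the neuroendocrine markers, *SYP* was at 6.96 ± 0.06 in H82 N1ICD cells without doxycycline and 0.99 ± 0.25 with it, and *INSM1* was at 6.91 ± 0.18 in COR-L88 under DMSO and 2.12 ± 0.16 under TAS1440. Library 4, of H82 N1ICD cells without doxycycline, had a mean correlation of 0.961 with its own group. Its highest correlation with a single library of another group was 0.966. The mean was likewise the smaller value in the 3 parental H524 libraries and 2 of the KP1 libraries under TAS1440 plus GSI. Library 4 is named below where a call rests on it.

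The sequences before starts of *CASP8*, the gene the set is built around, and of the necroptosis genes *MLKL* and *RIPK1* are shown to place Notch- and STAT-type letters before genes whose RNA differed below. *CASP8* start 3, whose stretch held no match, is not shown. They are the reference bases (RefSeq promoter table, GRCh38.p14, placed on GRCh37 by an exact match) up to the first annotated exon, 5′ to 3′ on the gene's strand. Capitals mark a match, on either strand, to TTCNNNGAA (STAT-type) or TGGGAA (CSL-type, the DNA-binding partner of N1ICD).
CASP8 start 1, chr2:202097936-202098165, plus strand: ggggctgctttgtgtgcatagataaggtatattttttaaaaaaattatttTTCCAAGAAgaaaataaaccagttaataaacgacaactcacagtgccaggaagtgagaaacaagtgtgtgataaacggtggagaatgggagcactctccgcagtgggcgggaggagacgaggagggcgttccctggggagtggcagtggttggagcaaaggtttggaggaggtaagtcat
CASP8 start 2, chr2:202122508-202122702, plus strand: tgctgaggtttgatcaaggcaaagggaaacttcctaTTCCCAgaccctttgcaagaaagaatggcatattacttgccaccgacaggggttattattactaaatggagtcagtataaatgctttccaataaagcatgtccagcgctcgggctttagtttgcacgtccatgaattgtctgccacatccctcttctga
MLKL start 1, chr16:74734859-74735010, minus strand: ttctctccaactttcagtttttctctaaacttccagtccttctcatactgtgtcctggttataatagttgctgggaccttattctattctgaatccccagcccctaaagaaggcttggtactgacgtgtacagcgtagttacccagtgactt
RIPK1 start 1, chr6:3063951-3064057, plus strand: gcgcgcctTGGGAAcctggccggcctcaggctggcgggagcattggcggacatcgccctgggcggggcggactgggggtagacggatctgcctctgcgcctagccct

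The promoter table held 11 starts of 5 of the 10 genes (*CASP4*, *CASP8*, *FAS*, *MLKL* and *RIPK1*), and each was searched over 250 bases before the start. TTCNNNGAA, present before 6.57% of all 35114 starts in the table, was found once, 200 bases before *CASP8* start 1. TGGGAA, present before 20.8% of all starts, was found 214 bases before *CASP8* start 2, at 2 places before *RIPK1* start 1 (1 of them in capitals above), and before 2 of the 3 *FAS* starts. An IRF-type element (3.02% of all starts) was found before *RIPK1* starts 2 and 3, which share that occurrence. None of the motifs was found before *MLKL* or *CASP4*. The *CASP8* stretches held few CpG dinucleotides, 5 or 6 in 250 bases against a median of 11 over the table, while *RIPK1* start 1 held 29. A match is only a run of letters: no binding or methylation was measured here.

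Across the human lines the 10 genes sat at very different levels, and *RIPK3* and *CASP1* were the lowest by the number of libraries at 0. *RIPK3*, the kinase that activates MLKL, was at 0 in 37 of 60 libraries, with a highest level of 0.75. *CASP1* was at 0 in 32 of 60 libraries, with a highest level of 1.29, and its group means above 0.4 were those of H82 N1ICD cells with doxycycline (0.75 ± 0.18, 0.96 ± 0.40 with *REST* KO and 0.44 ± 0.13 with *STING1* KO). In H524 and H69 it was at 0.16 or lower, as was *RIPK3*, and *CASP10* reached at most 0.06 in H524 and 0.16 in H69. *CASP10* was at least 1 in 3 libraries, all of COR-L88 under TAS1440. *RIPK1* was the most widely expressed, at least 1 in 55 of 60 libraries, followed by *MLKL* in 42 and *TNFRSF10B* in 39. *CASP8* reached 1 in 29 libraries, *CASP4* in 27, *GSDMD* in 24 and *FAS* in 19.

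**Figure D1:**
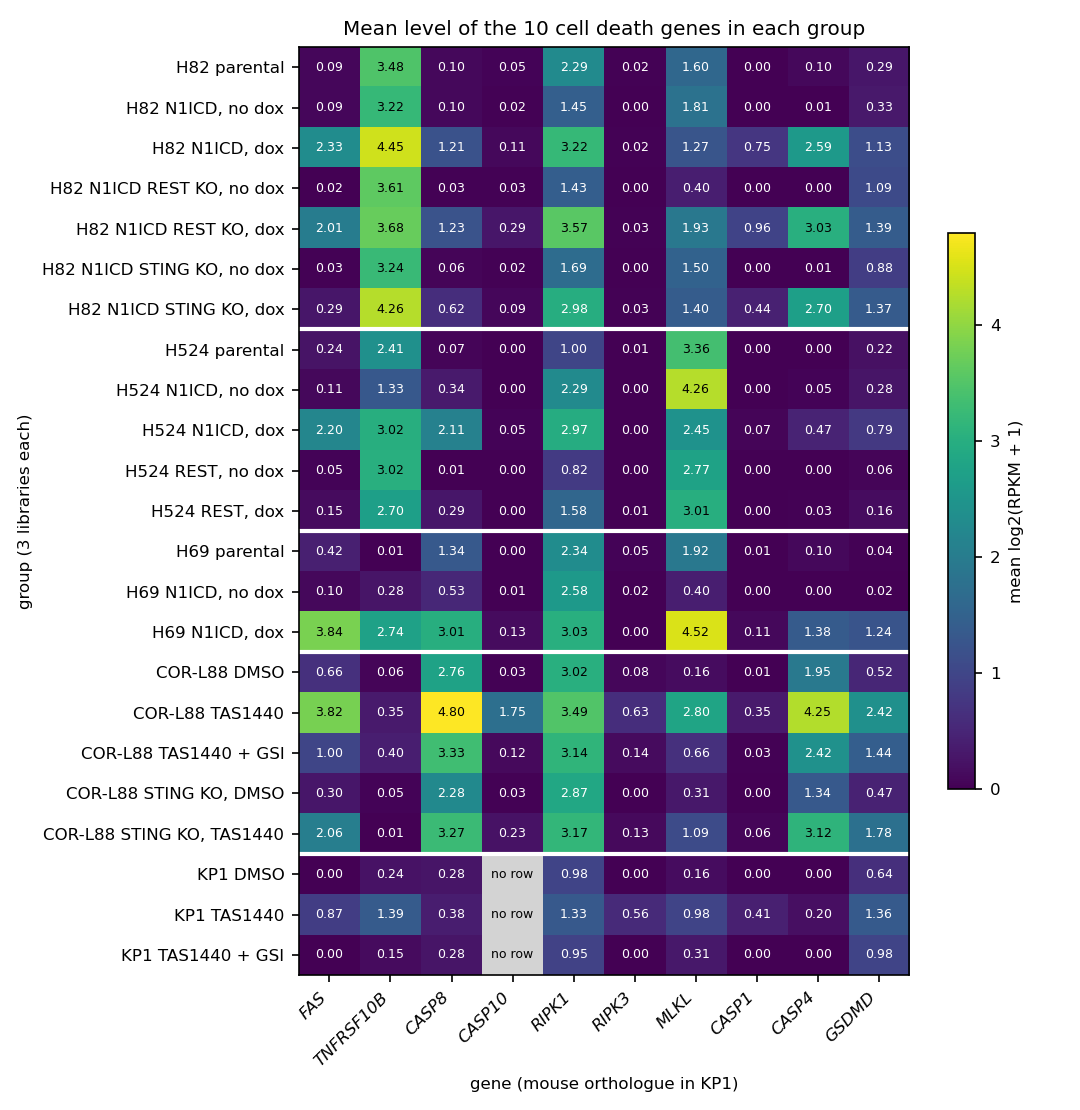
Mean level, log2(RPKM + 1), of the 10 genes in the 20 human and 3 KP1 groups (n = 3 libraries each), shown by color. KP1 has no *Casp10* value. *RIPK3* has human group means of 0.63 or lower, *CASP1* is highest in H82 *REST* KO cells with doxycycline (0.96), and *CASP8* runs from 0.01 in H524 cells carrying the REST vector without doxycycline to 4.80 in COR-L88 under TAS1440.

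Among the 20 human groups the mean *CASP8* level was ordered as follows. COR-L88 under TAS1440 was highest (4.80 ± 0.28), followed by COR-L88 under TAS1440 plus GSI (3.33 ± 0.07) and COR-L88 *STING1* KO under TAS1440 (3.27 ± 0.31), which differed by less than their spread. H69 N1ICD cells with doxycycline (3.01 ± 0.11) and COR-L88 under DMSO (2.76 ± 0.15) came next, then COR-L88 *STING1* KO under DMSO (2.28 ± 0.14) and H524 N1ICD cells with doxycycline (2.11 ± 0.25), which also lay within their spread of each other. Parental H69 (1.34 ± 0.06) stood close to H82 N1ICD cells with doxycycline, with *REST* KO (1.23 ± 0.48) and without (1.21 ± 0.17). All other groups had means of 0.62 or lower. In parental H82 and H524 cells *CASP8* was nearly absent, at 0.10 ± 0.09 and 0.07 ± 0.06.

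N1ICD overexpression in H82 cells was accompanied by higher RNA of both death receptors, of *CASP8*, of *RIPK1* and of *CASP4*. Of the 7 genes tested, 5 were higher with doxycycline and 0 lower, where 27.1% of all 13903 genes tested were called in either direction; the median difference was 1.23 over the 7 genes and -0.003 over all genes. The other 2, *GSDMD* and *MLKL*, were not called. *FAS*, *CASP8* and *CASP4* passed the filter for testing only through libraries with doxycycline. This count, and those below for H82 cells with *REST* KO or *STING1* KO, therefore rest in part on the filter.

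*FAS* was near 0 in the 3 untreated H82 vector libraries (0.05, 0.11 and 0.11) and reached 1.93, 3.07 and 2.00 under doxycycline. No library overlapped, as was true of 52.6% of all genes, and the difference was 2.24 ± 0.21 (SE; adjusted *P* = 1.16e-07). *TNFRSF10B* was already expressed, at 2.57, 3.63 and 3.45, and stood at 4.52, 4.40 and 4.43 with doxycycline. Its difference of 1.23 ± 0.27 (adjusted *P* = 0.00104) was 0.91 without library 4, the lowest of the untreated libraries, and 0.98 against parental cells, so its call rests on that library and on the vector cells as baseline.

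*CASP8* went from 0.08, 0.13 and 0.09 without doxycycline to 1.26, 1.35 and 1.01 with it, or from a mean of 0.072 to 1.32 RPKM. The groups were far apart at a low level (difference 1.11 ± 0.18, adjusted *P* = 6.88e-05), and under quantile normalization the difference was 0.77, short of 1. *CASP10*, its neighbor, was not tested in this line, where its highest level was 0.31, in *REST* KO cells with doxycycline.

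Of the necroptosis genes, *RIPK1* was called in H82 and *MLKL* was not. *RIPK1*, which links death receptor complexes to cell survival, apoptosis or necroptosis, was at 2.52, 0.82 and 1.01 without doxycycline and at 3.23, 3.14 and 3.30 with it. Library 4 again stood alone, at 2.52, but below all treated libraries, and the difference was 1.77 ± 0.32 (adjusted *P* = 0.000199); against parental cells, at 2.58, 1.73 and 2.57, it was 0.93. *MLKL*, at 2.67, 1.49 and 1.26 without and 0.89, 1.75 and 1.18 with doxycycline, overlapped between the groups (difference -0.53 ± 0.32, adjusted *P* = 0.17).

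Among the pyroptosis genes *CASP4* gave the clearest separation, from 0.00, 0.00 and 0.03 to 2.49, 2.88 and 2.41 (difference 2.58 ± 0.14, adjusted *P* = 6.88e-11). *GSDMD*, the substrate of caspase-4, stood at 0.40, 0.28 and 0.30 without and 1.08, 1.10 and 1.21 with doxycycline. Its groups did not overlap, but the difference of 0.80 ± 0.17 (adjusted *P* = 0.000685) was under 1. With 0.1 in place of 1 added to RPKM (a pseudocount of 0.1) *GSDMD* was called higher by limma (1.87, adjusted *P* = 6.11e-05). *CASP1* was at 0 in every H82 library without doxycycline, parental and KO lines included, and at 0.77, 0.93 and 0.57 with it, too low for testing; *CARD16*, whose exons it shares, was called higher in the same comparison (difference 1.42 ± 0.18, adjusted *P* = 2.90e-06).

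**Figure D2:**
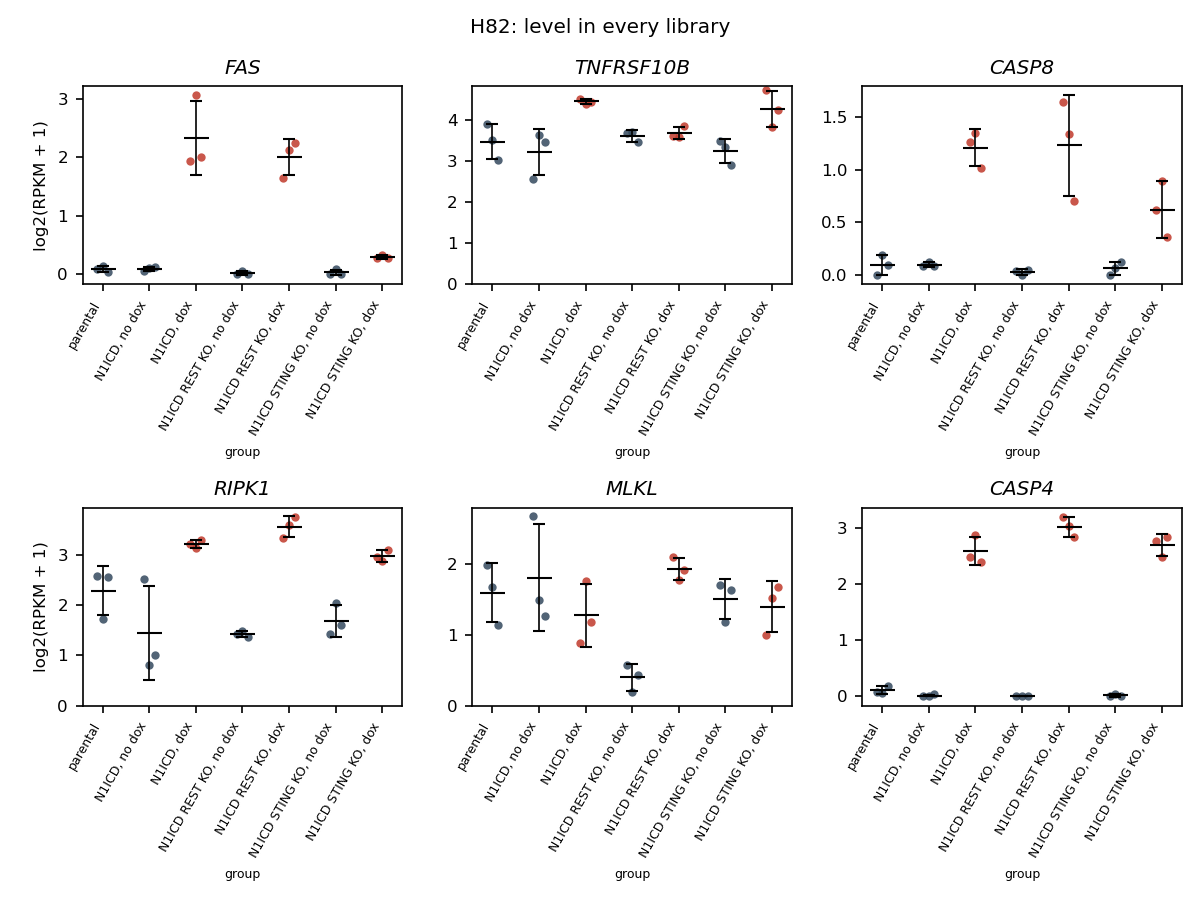
Level, log2(RPKM + 1), of genes of the set in the 21 H82 libraries, by group. Each point is 1 library (red with doxycycline, dark without) and the dash with bars is the mean ± SD of 3. *CASP4* is near 0 without and at 2.41 or more with doxycycline in all 3 backgrounds, while *FAS* with doxycycline stays at 0.33 or lower in *STING1* KO cells.

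H82 N1ICD cells labelled *REST* KO gave 5 higher and 0 lower of 7 genes with doxycycline, where 29.9% of all genes were called and the median difference was 1.53 over the 7 genes and -0.009 over all. The 5 were *CASP4*, *CASP8*, *FAS*, *RIPK1* and *MLKL*. *FAS* went from 0.00, 0.05 and 0.00 to 1.65, 2.12 and 2.24 and *CASP4* from 0 in all 3 libraries to 3.21, 3.05 and 2.85 (adjusted *P* = 4.06e-07 and 5.17e-12). *CASP8* went from 0.04, 0.00 and 0.05 to 1.64, 1.34 and 0.71. This difference of 1.20 (adjusted *P* = 2.54e-05) was 0.99 without library 31, the highest of the treated ones, and 0.72 under quantile normalization. *RIPK1* went from 1.42, 1.49 and 1.38 to 3.34, 3.60 and 3.77 (difference 2.14, adjusted *P* = 2.53e-05). *TNFRSF10B* did not separate, at 3.68, 3.71 and 3.45 without and 3.60, 3.59 and 3.84 with doxycycline.

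With doxycycline on both sides, 0 of 7 genes were called between *REST* KO and intact N1ICD cells by limma, where 17.6% of all genes were called, and 2 had an unadjusted *P* under 0.05, as did 46.7% of all genes. These 2 were *TNFRSF10B* (difference -0.77, adjusted *P* = 0.0317) and *CASP4* (0.44, adjusted *P* = 0.018). Without doxycycline 1 of 7 was called, against 6.24% of all genes. This was *MLKL*, the executioner of necroptosis, at 0.57, 0.20 and 0.43 in *REST* KO cells against 2.67, 1.49 and 1.26 in intact ones. The difference of -1.41 ± 0.32 (adjusted *P* = 0.00613) was -0.98 without library 4, the highest of the intact libraries, and was not called when only the libraries of these groups were fitted (adjusted *P* = 0.0729).

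With doxycycline *MLKL* stood at 2.09, 1.77 and 1.92 in *REST* KO cells, a called rise of 1.53 ± 0.32 from their own low start (adjusted *P* = 0.00056), against the uncalled difference of -0.53 in intact cells. The difference between the responses was 2.06 ± 0.45 (adjusted *P* = 0.00345); 2 of 7 genes differed in this way, where 12.9% of all genes did. The second was *TNFRSF10B*, whose response was smaller with *REST* KO (difference -1.17 ± 0.38, adjusted *P* = 0.0447). That call was lost when any 1 of 10 of the 12 libraries was left out, with differences between -1.25 and -0.84 (the latter without library 4). At the start the 2 backgrounds also differed in *GSDMD*, which was at 1.14, 1.04 and 1.07 in *REST* KO cells before doxycycline (difference from intact cells 0.76, adjusted *P* = 0.00571).

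In H82 N1ICD cells labelled *STING1* KO, *CASP4*, *RIPK1* and *TNFRSF10B* were higher with doxycycline and *FAS* and *CASP8* were not called. The last 2 lay near 0 and depend on the scale there. With a pseudocount of 0.1 both were called higher by limma, *FAS* by 1.46 (adjusted *P* = 0.0041) and *CASP8* by 2.12 (adjusted *P* = 0.000947). Of 7 genes 3 were higher and 0 lower (20.2% of all genes called; medians 0.56 over the 7 genes and 0.01 over all). *CASP4* stood at 0.00, 0.04 and 0.00 without and 2.78, 2.48 and 2.84 with doxycycline (difference 2.69, adjusted *P* = 6.25e-11). *RIPK1* stood at 1.43, 2.04 and 1.60 without and 2.96, 2.88 and 3.11 with it (1.29, adjusted *P* = 0.0042). *TNFRSF10B*, at 3.48, 3.34 and 2.90 without and 4.72, 3.83 and 4.24 with doxycycline, was at the edge of a call (1.02, adjusted *P* = 0.00617): the difference was 0.85 without library 57, 0.79 without library 58, 0.94 with median-centered libraries and 0.99 under quantile normalization.

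*FAS* in these cells was at 0.00, 0.08 and 0.00 without and 0.27, 0.33 and 0.27 with doxycycline (difference 0.26 ± 0.21, adjusted *P* = 0.362). All 3 doxycycline libraries lay far below the 1.93 to 3.07 of intact N1ICD cells, and the direct difference under doxycycline was -2.05 ± 0.21 (adjusted *P* = 2.50e-06). It was the 1 gene of 7 called there, against 16.5% of all genes. With a pseudocount of 0.1 *CASP8* was called lower there too (-1.19, adjusted *P* = 0.042). Relative library size, read from the smallest steps of the values, was 0.82 in each *STING1* KO library with doxycycline. In the intact libraries with doxycycline it was 1.27 to 1.35, and the part of this difference was not tested. The responses of *FAS* also differed between the 2 backgrounds, by -1.98 ± 0.30 (adjusted *P* = 0.000449); 1 of 7 genes and 7.12% of all genes differed so. *CASP8*, at 0.61, 0.89 and 0.36 with doxycycline against 0.00, 0.07 and 0.13 without, gave 0.56 (adjusted *P* = 0.022), and its response did not differ from that of intact cells at the threshold (-0.55 ± 0.26, adjusted *P* = 0.2). Without library 4 the difference between the responses of *RIPK1* was -1.01 (adjusted *P* = 0.039) and would be called too.

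Before doxycycline, *STING1* KO and intact N1ICD cells gave 0 of 7 calls by limma, where 14.4% of all genes were called, and 1 gene at an unadjusted *P* under 0.05 (44.2% of all genes), *GSDMD* (difference 0.55, adjusted *P* = 0.0166). Intact vector cells and parental H82 cells likewise gave 0 of 7 calls (6.41% of all genes), with 1 at an unadjusted *P* under 0.05 (28% of all genes). That 1 gene was *RIPK1* (difference -0.84, adjusted *P* = 0.0944), which would be called without library 2 (-1.13) or without library 4 (-1.38).

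In H524 cells 5 of the 10 genes were tested, and N1ICD overexpression gave 3 higher (*FAS*, *TNFRSF10B* and *CASP8*) and 1 lower (*MLKL*), where 18.6% of 13648 genes were called. The median difference was 1.69 over the 5 genes and -0.02 over all. *FAS* and *CASP8* passed the filter for testing only through the libraries with N1ICD and doxycycline, so this count too rests in part on the filter. *FAS* went from 0.06, 0.06 and 0.21 to 1.62, 2.66 and 2.33 (difference 2.09 ± 0.20, adjusted *P* = 2.00e-06). *CASP8* went from 0.79, 0.13 and 0.11 to 2.16, 1.85 and 2.33 (1.77 ± 0.18, adjusted *P* = 3.63e-06), a mean of 0.302 to 3.37 RPKM. The 2 genes did not overlap between groups, as was true of 47.6% of all genes. Parental cells lay as low as untreated vector cells for both.

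*TNFRSF10B* and *MLKL* in H524 depended on the baseline. *TNFRSF10B* stood at 1.16, 1.17 and 1.66 without and 2.95, 2.95 and 3.15 with doxycycline (difference 1.69 ± 0.23, adjusted *P* = 5.54e-05), but parental cells stood at 2.31, 2.58 and 2.32, and the difference from them was 0.61. *MLKL* was high in this line, at 4.74, 3.10 and 4.96 without and 2.33, 2.25 and 2.78 with doxycycline (-1.81 ± 0.43, adjusted *P* = 0.00487). Parental cells stood between, at 3.17, 3.02 and 3.89, and the difference from them was -0.91 (adjusted *P* = 0.0957). *RIPK1*, at 2.85, 1.95 and 2.08 without and 2.93, 3.00 and 2.98 with doxycycline, gave 0.68 ± 0.31 (adjusted *P* = 0.112) from vector cells and 1.97 from parental cells, at 1.35, 0.32 and 1.33.

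Vector cells themselves differed from parental H524 cells in 2 of 5 genes, *RIPK1* (1.30 ± 0.31, adjusted *P* = 0.00816) and *TNFRSF10B* (-1.08 ± 0.23, adjusted *P* = 0.00403), where 12.1% of all genes were called. Both calls were lost without parental library 20 (0.96 and -0.99), that of *TNFRSF10B* also without library 22 (-0.99) or 23 (-0.998), and that of *RIPK1* when only these groups were fitted (adjusted *P* = 0.103). *MLKL* would be called without library 23 (1.49). The untested *CASP4* was at 0.15, 0.00 and 0.00 without and 0.72, 0.35 and 0.35 with doxycycline, and *GSDMD* at 0.13, 0.57 and 0.13 without and 0.77, 0.76 and 0.85 with it. Neither overlapped, as was true of 47.6% of the genes tested, and both lay at levels under 1.

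REST overexpression in H524 was set beside N1ICD because *REST* is a target of Notch. It gave 0 of 5 calls by limma, where 1.87% of all genes were called. *RIPK1* (0.77, adjusted *P* = 0.214) was the 1 gene at an unadjusted *P* under 0.05, as were 17.4% of all genes. *FAS* was at 0.05, 0.00 and 0.11 without and 0.18, 0.12 and 0.15 with doxycycline, and *CASP8* at 0.00, 0.04 and 0.00 without and 0.19, 0.24 and 0.43 with it. Both genes thus stayed under 0.5 in every REST library. REST vector cells without doxycycline gave 0 of 5 calls against parental cells (0.264% of all genes), with 1 at an unadjusted *P* under 0.05 (9.72% of all genes).

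With doxycycline on both sides, 3 of 5 genes were higher under N1ICD than under REST, where 23.8% of all genes were called: *FAS* (2.05, adjusted *P* = 2.23e-06), *CASP8* (1.82, adjusted *P* = 2.47e-06) and *RIPK1* (1.39 ± 0.31, adjusted *P* = 0.00249). The responses to doxycycline differed between the vectors for 4 of 5 genes and 15.6% of all genes. Both counts rest in part on the filter, which *FAS* and *CASP8* passed only through the libraries with N1ICD and doxycycline. *FAS* (2.00 ± 0.28, adjusted *P* = 0.000175), *TNFRSF10B* (2.01 ± 0.32, adjusted *P* = 0.000475) and *CASP8* (1.495 ± 0.25, adjusted *P* = 0.000792) responded more under N1ICD, the last not called with a pseudocount of 0.1 (adjusted *P* = 0.0878). The difference for *MLKL* had the other sign (-2.04 ± 0.60, adjusted *P* = 0.0294), a call that was lost when any 1 of 7 libraries (22, 24, 25, 26, 34, 37 or 39) was left out, with adjusted *P* between 0.0509 and 0.0727.

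H69 cells gave the broadest response of the 3 N1ICD lines. With doxycycline 6 of 7 genes were higher and 0 lower, where 41.8% of 13580 genes were called, and the median difference was 2.46 over the 7 genes and 0.08 over all. The seventh, *RIPK1*, was at 2.51, 2.61 and 2.63 without and 2.97, 2.98 and 3.13 with doxycycline, a difference of 0.45 ± 0.08 (adjusted *P* = 0.00056) under the size threshold. All 6 calls were kept with parental cells as the baseline, where *FAS* gave 3.41, *TNFRSF10B* 2.74 and *MLKL* 2.60. *FAS*, *TNFRSF10B*, *CASP4* and *GSDMD* passed the filter for testing only through the libraries with doxycycline. The count of 6 therefore rests in part on the filter.

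*FAS* went from 0.00, 0.16 and 0.14 to 3.62, 3.90 and 3.99 in H69 (difference 3.74 ± 0.11, adjusted *P* = 7.47e-09), a group mean (3.84 ± 0.19) close to that of COR-L88 under TAS1440 (3.82 ± 0.60). *TNFRSF10B*, near 0 in parental cells, went from 0.79, 0.05 and 0.00 to 2.69, 2.75 and 2.78 (2.46 ± 0.19, adjusted *P* = 2.54e-06). *CASP8* went from 0.43, 0.55 and 0.61 to 3.01, 2.89 and 3.11 (2.48 ± 0.08, adjusted *P* = 1.21e-08), or 0.445 to 7.04 RPKM. None of the 3 genes overlapped between groups, as was true of 83.4% of all genes tested in this comparison.

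*MLKL* had the largest difference of the 7 genes from untreated vector cells in H69, though not from parental cells, going from 0.61, 0.17 and 0.41 to 4.67, 4.27 and 4.62 (4.13 ± 0.13, adjusted *P* = 1.31e-08), or 0.325 to 22.1 RPKM. Here too the vector cells stood apart from parental ones, at 1.98, 1.88 and 1.90, by -1.53 ± 0.13 (adjusted *P* = 0.000103); 1 of 7 genes and 5.27% of all genes were called in that comparison. *CASP8* in parental cells, at 1.32, 1.30 and 1.41, gave a difference of -0.81 (adjusted *P* = 0.000183), which is under the size threshold. The neuroendocrine factor gene *NEUROD1* was at 9.39 ± 1.06 in vector cells against 4.37 ± 0.93 in parental ones, and the part of this shift in the values was not tested. *CASP4* went from 0 in all 3 libraries to 1.33, 1.44 and 1.37 (adjusted *P* = 7.78e-08) and *GSDMD* from 0.03, 0.01 and 0.02 to 1.31, 1.17 and 1.25 (adjusted *P* = 1.46e-07).

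**Figure D3:**
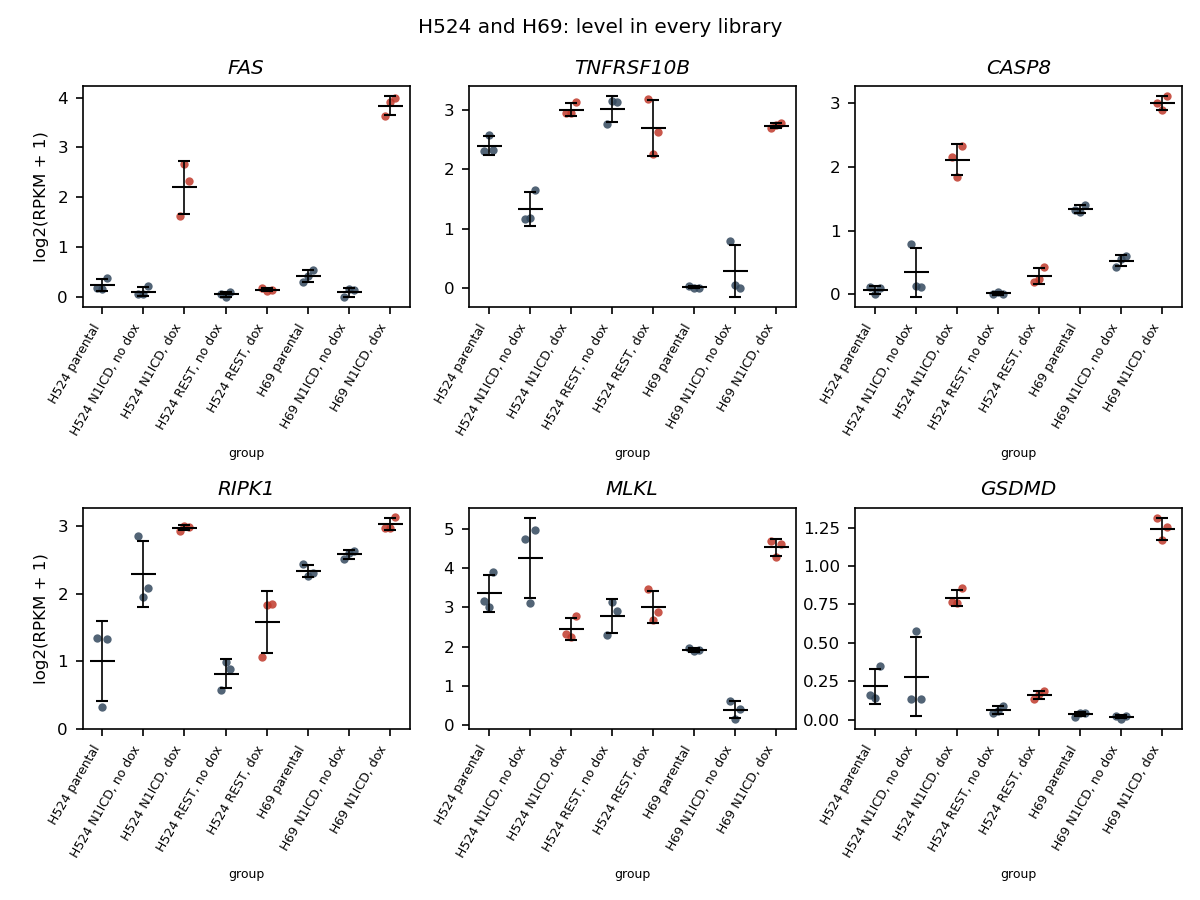
Level, log2(RPKM + 1), of genes of the set in the 15 H524 and 9 H69 libraries, by group. Each point is 1 library (red with doxycycline, dark without) and the dash with bars is the mean ± SD of 3. *MLKL* with doxycycline lies at 2.78 or lower in H524 N1ICD cells, under their untreated libraries, and at 4.27 or higher in H69, above all untreated H69 libraries.

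The N1ICD responses of the 3 lines were compared in 1 fit, in which 8 of the 10 genes were tested. Between H69 and H82, 6 of 8 responses differed, where 43.1% of all genes did. The response in H69 was larger for *MLKL* (by 4.66 ± 0.47, adjusted *P* = 1.34e-11), *FAS* (1.49 ± 0.33, adjusted *P* = 0.000144), *CASP8* (1.37 ± 0.24, adjusted *P* = 2.71e-06) and *TNFRSF10B* (1.23 ± 0.31, adjusted *P* = 0.000584). It was smaller for *RIPK1* (-1.33 ± 0.38, adjusted *P* = 0.0025) and *CASP4* (-1.20 ± 0.22, adjusted *P* = 6.85e-06). For *CASP8* the call depends on the scale near 0: with a pseudocount of 0.1 the difference was 0.70 (adjusted *P* = 0.264).

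Between H524 and H82, 3 of 8 responses differed (19.7% of all genes), each smaller or more negative in H524. *CASP4* had the firmest difference (-2.16 ± 0.22, adjusted *P* = 5.57e-11). *MLKL* (-1.28 ± 0.47, adjusted *P* = 0.0324) and *RIPK1* (-1.09 ± 0.38, adjusted *P* = 0.0227) were less firm. The *MLKL* call was lost without any 1 of 7 libraries (H82 libraries 5, 6 and 8, H524 libraries 22, 24, 25 and 26), with differences from -1.22 to -0.93. The *RIPK1* call was lost without library 5 (-0.78), 6 (-0.88) or 22 (-0.81).

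Between H69 and H524, 2 of 8 responses differed (36.8% of all genes), *MLKL* (5.94 ± 0.47, adjusted *P* = 1.26e-14) and *FAS* (1.65 ± 0.33, adjusted *P* = 4.71e-05). *CASP4* would be called without library 25 (1.08) and *TNFRSF10B* without library 49 (1.03). The 3 comparisons between lines share libraries and are not independent of each other. *MLKL* thus took 3 courses, with a called rise in H69, a called fall from vector cells in H524 and no call in H82.

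COR-L88 cells, which had the most *CASP8* of the human lines before treatment, gave 6 higher and 0 lower of 7 genes under TAS1440 against DMSO. In this comparison 22.8% of 13134 genes were called, and the median difference was 2.04 over the 7 genes and 0.008 over all. The 6 were *FAS*, *CASP8*, *CASP10*, *MLKL*, *CASP4* and *GSDMD*, and 7 of 7 genes did not overlap between groups, as was true of 62.2% of all genes. *TNFRSF10B* was near 0 in this line, with group means of 0.40 or lower, and was not tested. *FAS*, *MLKL*, *GSDMD* and *CASP10* passed the filter for testing only through libraries with TAS1440. The count of 6, and the counts below in this line that include these genes, therefore rest in part on the filter.

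*FAS* went from 0.94, 0.60 and 0.44 under DMSO to 4.51, 3.46 and 3.48 under TAS1440 (difference 3.15 ± 0.30, adjusted *P* = 1.26e-06). *CASP8* went from 2.81, 2.58 and 2.88 to 4.64, 4.64 and 5.12 (2.04 ± 0.16, adjusted *P* = 3.05e-07), a mean of 5.79 to 27.2 RPKM. *CASP10* was near 0, at 0.04, 0.04 and 0.01, and reached 1.35, 1.73 and 2.16 (1.72 ± 0.16, adjusted *P* = 1.10e-06). COR-L88 under TAS1440 was the 1 group of 20 in which this second death receptor caspase reached 1. *CASP10* passed the filter for testing only through these libraries. Its calls in this line, here and below, and its part in the counts therefore rest on that choice.

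In the same cells *MLKL* went from 0.38, 0.00 and 0.11 to 3.40, 2.37 and 2.62 (2.63 ± 0.24, adjusted *P* = 8.43e-07), while *RIPK3* stayed low, at 0.49, 0.75 and 0.67 against 0.09, 0.10 and 0.04. *RIPK1* was at 3.18, 2.83 and 3.05 under DMSO and 3.54, 3.38 and 3.55 under TAS1440, a difference of 0.47 ± 0.12 (adjusted *P* = 0.00545) under the size threshold. *CASP4* went from 2.12, 1.93 and 1.79 to 4.34, 4.11 and 4.30 (2.31 ± 0.23, adjusted *P* = 2.18e-06). *GSDMD* went from 0.61, 0.44 and 0.52 to 2.06, 2.48 and 2.71 (1.90 ± 0.15, adjusted *P* = 3.05e-07). *CASP1* stood at 0.28, 0.37 and 0.39 under TAS1440.

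Per kilobase, the mean levels under TAS1440 were 27.2 RPKM for *CASP8*, 18.1 for *CASP4*, 14.0 for *FAS*, 10.3 for *RIPK1*, 6.29 for *MLKL*, 4.43 for *GSDMD* and 2.45 for *CASP10*. *RIPK3* (0.557 RPKM), *CASP1* (0.274) and *TNFRSF10B* (0.273) lay under 1 RPKM.

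TAS1440 plus GSI was set beside TAS1440 alone. No group received GSI alone, so an effect of GSI itself and a loss of the TAS1440 response cannot be told apart. Of the 7 genes 5 were higher under TAS1440 than under TAS1440 plus GSI, where 14.7% of all genes were called (medians 1.63 and 0.04): *FAS* (2.82, adjusted *P* = 1.00e-05), *MLKL* (2.13, adjusted *P* = 1.52e-05), *CASP4* (1.83, adjusted *P* = 3.83e-05), *CASP10* (1.63, adjusted *P* = 6.28e-06) and *CASP8* (1.47, adjusted *P* = 1.50e-05). *GSDMD* fell just short, at 0.97 (adjusted *P* = 0.000196), and would be called without library 13 (1.15). These comparisons share the TAS1440 libraries with those against DMSO.

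TAS1440 plus GSI against DMSO gave 0 of 7 calls by limma (9.02% of all genes), with 2 genes at an unadjusted *P* under 0.05 (35.2% of all genes). The 2 were *CASP8*, at 3.32, 3.26 and 3.40 (0.57, adjusted *P* = 0.0216), and *GSDMD*, at 1.47, 1.43 and 1.43 (0.92, adjusted *P* = 0.00055). Both groups of libraries lay wholly above DMSO and below TAS1440. Of all genes, 46.2% did not overlap with DMSO and 60.1% did not overlap with TAS1440. *FAS* (1.33, 0.98 and 0.68) and *MLKL* (0.95, 0.55 and 0.49) under TAS1440 plus GSI were nearer to DMSO, while *GSDMD* lay about midway. With a pseudocount of 0.1 *GSDMD* (1.77, adjusted *P* = 0.000299) and *MLKL* (1.79, adjusted *P* = 0.0213) were called higher than under DMSO by limma.

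**Figure D4:**
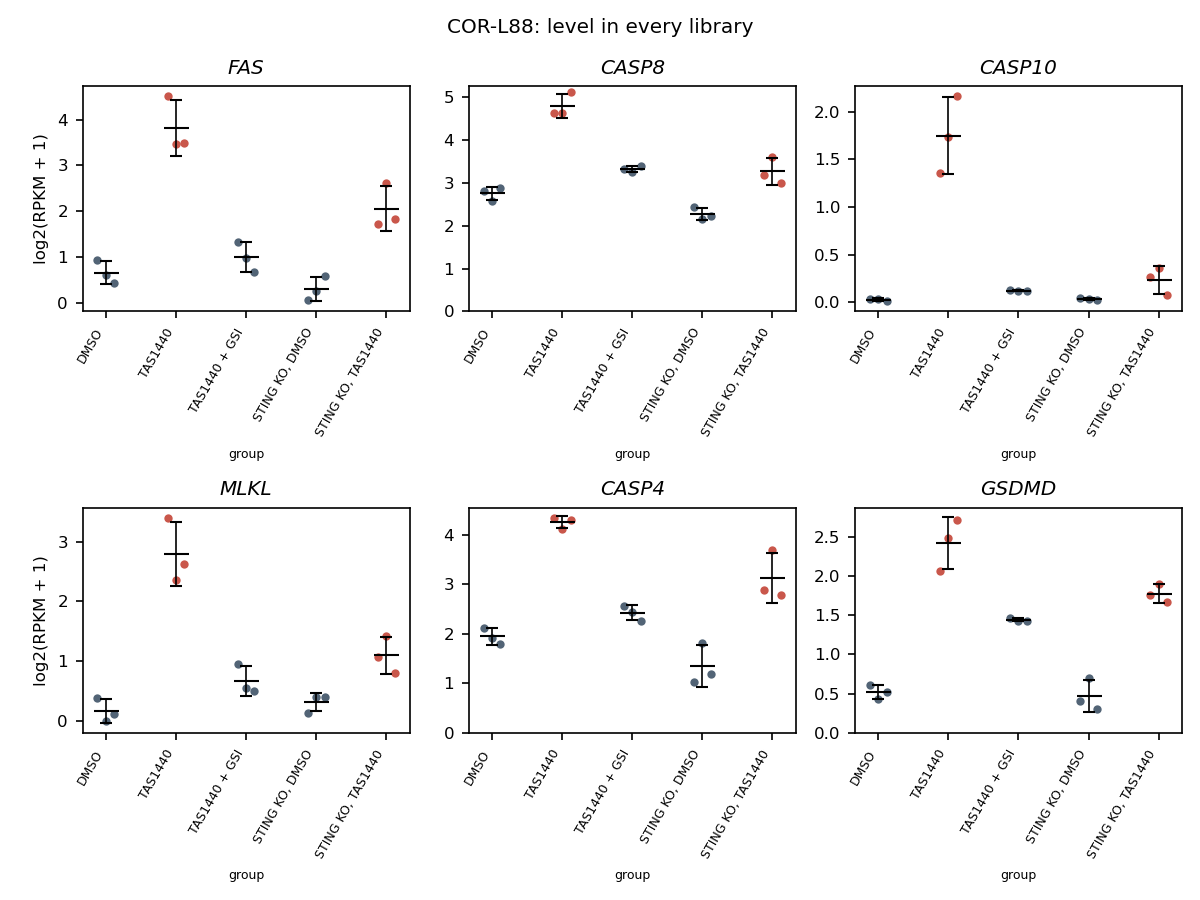
Level, log2(RPKM + 1), of genes of the set in the 15 COR-L88 libraries, by group. Each point is 1 library (red for TAS1440 without GSI, dark for the others) and the dash with bars is the mean ± SD of 3. *CASP10* reaches 1.35 to 2.16 under TAS1440 and stays at 0.36 or lower with GSI, with DMSO or with *STING1* KO.

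COR-L88 cells labelled *STING1* KO responded to TAS1440 in 3 of 7 genes, all higher, where 16% of all genes were called (medians 0.99 and -0.02). *CASP4* went from 1.02, 1.82 and 1.19 to 2.88, 3.69 and 2.78 (1.77, adjusted *P* = 3.91e-05), *FAS* from 0.07, 0.25 and 0.58 to 1.72, 2.63 and 1.83 (1.76, adjusted *P* = 0.000343) and *GSDMD* from 0.40, 0.70 and 0.30 to 1.76, 1.90 and 1.67 (1.31, adjusted *P* = 1.41e-05). *CASP8*, at 2.44, 2.17 and 2.24 under DMSO and 3.19, 3.62 and 3.01 under TAS1440, was at 0.99 (adjusted *P* = 0.000286), just under 1; without library 40, 43 or 45 it would be called (1.07, 1.03 and 1.12). *MLKL* gave 0.78 (adjusted *P* = 0.0172) and *CASP10* 0.20 (adjusted *P* = 0.341). With a pseudocount of 0.1 *CASP8* (1.14, adjusted *P* = 0.000191) and *MLKL* (1.89, adjusted *P* = 0.00926) were called higher by limma.

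Under TAS1440 the *STING1* KO cells were lower than intact cells in 5 of 7 genes, where 6.53% of all genes were called, and the median difference was -1.51 over the 7 genes and -0.07 over all. They were *FAS* (-1.76, adjusted *P* = 0.00111), *MLKL* (-1.70, adjusted *P* = 0.000336), *CASP8* (-1.53, adjusted *P* = 4.78e-05), *CASP10* (-1.51, adjusted *P* = 4.27e-05) and *CASP4* (-1.14, adjusted *P* = 0.00357, or -0.97 and not called without library 45). *GSDMD* gave -0.64 (adjusted *P* = 0.0083). Under DMSO 0 of 7 were called by limma (1.47% of all genes), with 2 at an unadjusted *P* under 0.05 (22.4% of all genes).

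Tested as a difference between the responses to TAS1440, 3 of 7 genes and 4.23% of all genes responded differently with *STING1* KO: *MLKL* (-1.85 ± 0.34, adjusted *P* = 0.00759), *CASP10* (-1.52 ± 0.23, adjusted *P* = 0.00282) and *CASP8* (-1.05 ± 0.23, adjusted *P* = 0.0174). The *CASP8* call was lost without library 11 (-0.96), 15 (-0.89), 40 (-0.97) or 45 (-0.92), under quantile normalization (-0.99) and with median-centered libraries (-0.96). *FAS* missed the threshold (-1.39 ± 0.42, adjusted *P* = 0.0601) and passed it without library 44 (-1.68). *CASP4* gave -0.53 (adjusted *P* = 0.339) and *GSDMD* -0.59 (adjusted *P* = 0.111). In H82, by comparison, the response with a called difference under *STING1* KO was that of *FAS*; the lines were not tested against each other for this.

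**Figure D5:**
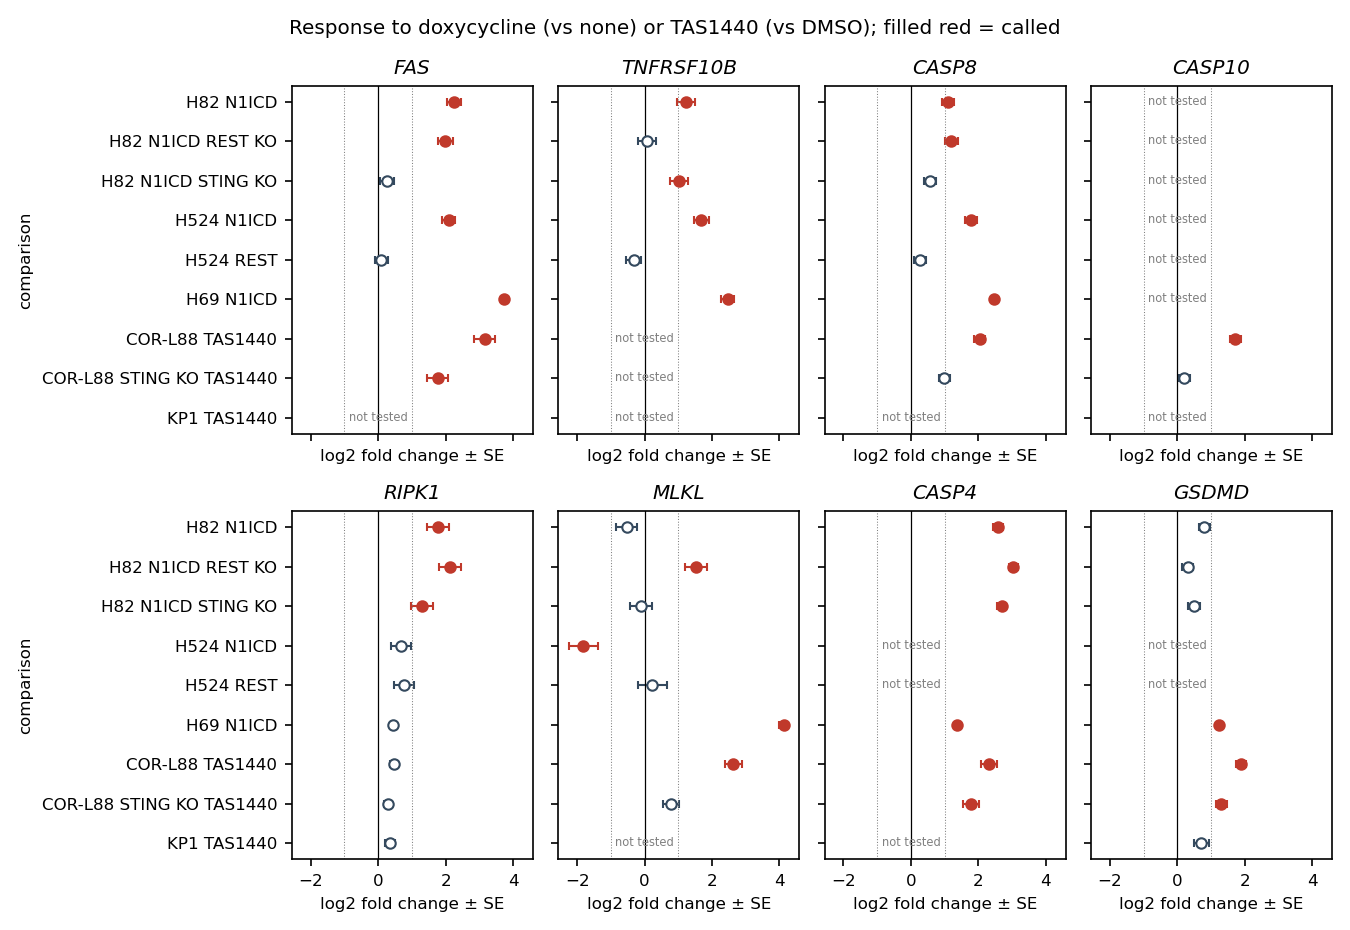
Difference in level, log2 scale, of each tested gene in the main comparisons, with bars for the standard error (n = 3 libraries per group); filled red points passed both thresholds, open points did not, and the dotted lines mark -1 and 1. *CASP4* is called in H82 in all 3 backgrounds (2.58, 3.03 and 2.69), and *MLKL* ranges from -1.81 in H524 to 4.13 in H69.

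In mouse KP1 cells these genes were low, and 2, *Gsdmd* and *Ripk1*, could be tested. TAS1440 against DMSO gave 0 of 2 calls by limma, where 18.8% of 8260 genes were called, and 2 of 2 had an unadjusted *P* under 0.05, as did 45.7% of all genes. *Gsdmd* was at 0.84, 0.81 and 0.27 under DMSO and 1.52, 1.60 and 0.95 under TAS1440 (0.72 ± 0.21, adjusted *P* = 0.0249). *Ripk1* was at 1.00, 1.02 and 0.91 and at 1.61, 1.21 and 1.18 (0.35 ± 0.15, adjusted *P* = 0.0913). TAS1440 against TAS1440 plus GSI gave 0 of 2 calls (16.5% of all genes), with 1 at an unadjusted *P* under 0.05 (42.2% of all genes). TAS1440 plus GSI against DMSO gave 0 of 2 (1.21% of all genes), with 0 at an unadjusted *P* under 0.05 (11.8% of all genes).

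The untested mouse genes are given by their values. *Fas* was at 0 in all DMSO and TAS1440 plus GSI libraries and at 0.97, 0.32 and 1.31 under TAS1440, and *Casp1* was at 0.31, 0.36 and 0.58 under TAS1440. *Tnfrsf10b* went from 0.20, 0.20 and 0.31 under DMSO to 1.35, 0.86 and 1.94 under TAS1440 and was at 0.11, 0.13 and 0.20 with GSI; without the filter on low levels it was called in both comparisons (1.15 and 1.24). *Casp4* was at 0 under DMSO and with GSI and at 0.21, 0.36 and 0.02 under TAS1440. *Mlkl* was at 0.16, 0.13 and 0.20 under DMSO and 0.58, 1.71 and 0.66 under TAS1440. *Casp8* did not separate, at 0.29, 0.27 and 0.27 under DMSO and 0.05, 0.20 and 0.90 under TAS1440. *Ripk3* was at 0.00, 1.37 and 0.32 under TAS1440, and the 3 TAS1440 libraries of KP1 were the least alike of any group.

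Other genes of these pathways were taken from lists of 69 genes (death receptor apoptosis, necroptosis, pyroptosis and interferon response factors). With N1ICD 20 of 51 tested were higher and 0 lower in H82 (27.1% of all genes called), 16 of 45 higher and 0 lower in H524 (18.6%), and 22 of 49 higher and 1 lower in H69, a share near that of all genes (41.8%). With TAS1440 in COR-L88 18 of 52 were higher and 1 lower (22.8%). In H82 these were led by *GBP1*, an interferon-induced GTPase that helps caspase-4 reach lipopolysaccharide (0.48 to 5.49), *TNFAIP3*, which encodes the ubiquitin-editing enzyme A20 (0.96 to 5.45), and *TLR3*, the receptor for double-stranded RNA (0 to 4.40). In H524 *TNFRSF1A*, the main TNF receptor, went from 0.30 to 6.12, and in H69 *TNFRSF10A*, the second TRAIL receptor, from 1.45 to 6.17. In COR-L88 *TNFSF10*, which encodes TRAIL itself, went from 0.65 to 5.35. REST in H524 gave 1 of 45 higher, against 1.87% of all genes called (*NINJ1*, 2.40 to 3.88, a protein of plasma membrane rupture).

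With *STING1* KO the list counts were 13 of 51 higher with doxycycline in H82 (20.2% of all genes called) and 8 of 52 higher and 1 lower with TAS1440 in COR-L88, near the 16% of all genes. Between KO and intact H82 cells with doxycycline 1 of 51 was higher and 6 lower, no larger a share than the 16.5% of all genes, among them *GBP1* (3.54 against 5.49) and *BIRC2*, which encodes the ubiquitin ligase cIAP1 (5.40 against 6.78). Between KO and intact COR-L88 cells under TAS1440 0 of 52 were higher and 9 lower (6.53% of all genes), led by *NLRP1* (0.98 against 3.92), *TNFAIP3* (2.22 against 4.90) and *GSDMC* (0.57 against 2.92). *NLRP1* was already lower with the KO under DMSO (1.54 against 4.67, adjusted *P* = 0.000393). *TLR3* in H82 was at 4.44 with the KO and 4.40 without. *TNFSF10* in COR-L88 was at 4.85 with the KO and 5.35 without. *CFLAR*, the gene next to *CASP10* whose product c-FLIP restrains caspase-8, was not called in H82 with doxycycline (0.25 ± 0.10, adjusted *P* = 0.0511) or in COR-L88 with TAS1440 (0.01 ± 0.12, adjusted *P* = 0.931).

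Over the 20 human group means, after subtracting the mean of each line, the course of *FAS* was close to that of *CASP8* (Pearson *r* = 0.947), as were those of *HLA-B* (0.949), *PRSS23* (0.946) and *SAMD9L* (0.943), all among the 5 most alike of 15887 genes. Of the other cell death genes *GSDMD* ranked 229 (0.835) and *CASP4* 762 (0.745), with *RIPK1* (0.701), *CASP10* (0.604), *MLKL* (0.604) and *TNFRSF10B* (0.601) further down. The points share libraries, scaling and the inducing conditions, and the values are descriptions.

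Markers of other cells were set beside these results, since blood cells express *CASP1*, *CASP10* and *MLKL* and fibroblasts express *FAS* and *CASP4*. The summed level of 5 haematopoietic markers was between 0.906 and 2.30 RPKM in COR-L88 under TAS1440, against 2.48 to 3.98 under DMSO, and it was highest in H69 with doxycycline (25.9 to 28.4 RPKM, against 7.28 to 10.8 without), where *CD14* made up most of it and *PTPRC* was at 0.02 or lower. The sum of 4 fibroblast markers was between 83.6 and 137 RPKM in H82 N1ICD cells with doxycycline against 0.803 to 11.0 without, between 40.2 and 53.3 against 1.21 to 2.63 in H524, and between 2249 and 2437 against 92.0 to 148 in H69. With doxycycline it was between 310 and 454 RPKM in H82 *REST* KO cells, 157 and 159 in H82 *STING1* KO cells, and 5.27 and 6.42 under REST in H524. It was between 1.22 and 4.15 RPKM in COR-L88 and between 0.349 and 61.1 in KP1 under TAS1440. *COL1A1* carried most of it in the N1ICD lines with doxycycline, and the part of these mesenchymal genes in the results was not tested.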

How the data were processed

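RNA-Seq libraries (stranded mRNA kit, paired-end) of 60 human and 9 mouse KP1 samples were analyzed. Per the methods and the submitters' processing notes, the authors trimmed reads with Cutadapt, aligned them with STAR to hg19 (mm10 is listed for mouse), quantified genes with RSEM and scaled libraries by TMM in edgeR; versions and annotation are not given in the sources used here. The deposited values are log2(RPKM + 1), in 1 table per species, so counts and depth are unknown; relative library size, read from the smallest steps of the values, ranged from 0.698 to 1.52 in the human and from 0.872 to 1.07 in the KP1 libraries.

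Groups followed the sample titles. Genes that reached a level of 1 in 3 or more libraries of a line were fitted with limma 3.58.1 (R 4.3.3; all groups of a line in 1 fit, moderated with trend), and across lines for the N1ICD vectors; *P* values are two-sided and Benjamini-Hochberg adjusted over all genes fitted. Calls needed an adjusted *P* under 0.05 and a difference of at least 1. The script was tested on simulated data. The 10 genes, the pathway lists and the tests were chosen with earlier results of these data known. Besides the 10, list genes are named where they were among the 3 largest called differences in a direction without overlap of the groups, along with check genes, locus neighbors, markers and genes among the 5 most like *CASP8* (values of some genes are not reported here). Alternatives were no filter, a pseudocount of 0.1, quantile normalization, median-centered libraries, no trend, only the groups compared, each library left out in turn, and, added after the data were seen, parental cells as baseline. Gene positions are GRCh37 and promoter sequences are from RefSeq.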

Additional observations from a re-analysis of the deposited data

Results flagged for a closer look

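Of the tested differences between responses, 21 passed the thresholds (adjusted *P* under 0.05 by limma and a difference of at least 1 on the log2 scale). Each compares the response to doxycycline or TAS1440 in 1 setting with that in another, and the libraries behind several of them are shared. Groups of 3 are too small for a test of single outlying samples.

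Between H82 N1ICD cells with and without *REST* KO, the responses of *MLKL* (2.06, adjusted *P* = 0.00345) and *TNFRSF10B* (-1.17, adjusted *P* = 0.0447) differed, and with and without *STING1* KO that of *FAS* did (-1.98, adjusted *P* = 0.000449). In COR-L88 with and without *STING1* KO, the responses of *CASP10* (-1.52, adjusted *P* = 0.00282), *CASP8* (-1.05, adjusted *P* = 0.0174) and *MLKL* (-1.85, adjusted *P* = 0.00759) differed. Between N1ICD and REST in H524, those of *CASP8* (1.495, adjusted *P* = 0.000792), *FAS* (2.00, adjusted *P* = 0.000175), *MLKL* (-2.04, adjusted *P* = 0.0294) and *TNFRSF10B* (2.01, adjusted *P* = 0.000475) differed.

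Between H69 and H82, the N1ICD responses of *CASP4* (-1.20), *CASP8* (1.37), *FAS* (1.49), *MLKL* (4.66), *RIPK1* (-1.33) and *TNFRSF10B* (1.23) differed, with adjusted *P* from 1.34e-11 to 0.0025. Between H524 and H82, those of *CASP4* (-2.16), *MLKL* (-1.28) and *RIPK1* (-1.09) differed, with adjusted *P* from 5.57e-11 to 0.0324. Between H69 and H524, those of *FAS* (1.65, adjusted *P* = 4.71e-05) and *MLKL* (5.94, adjusted *P* = 1.26e-14) differed.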

How the results depend on the processing

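Of 71 calls on the 10 genes, 56 were kept under every alternative (parental baseline aside) and none changed sign; the 15 others stand in the report with values at which they were lost. The counts of called genes were within 1.5 times the reported ones, with these exceptions. With a pseudocount of 0.1 they were 5 (3 as reported) for H82 *STING1* KO with doxycycline, 2 (1) for *STING1* KO against intact H82 cells with doxycycline, 2 (1) and 1 (0) for *REST* KO and *STING1* KO against intact H82 cells without it, 3 (1) for H69 vector against parental cells, 2 (0) for COR-L88 TAS1440 plus GSI against DMSO, 5 (3) for COR-L88 *STING1* KO under TAS1440, 1 (0) for KP1 TAS1440 against DMSO and 5 (2) for the H69 against the H524 response. Without a filter they were 1 (0) in KP1 for TAS1440 against DMSO and against TAS1440 plus GSI, and 1 (2) for the *REST* KO difference in H82 responses. With only the groups compared they were 0 (1) for *REST* KO against intact H82 cells without doxycycline, 1 (2) for H524 N1ICD vector against parental cells and 1 (3) for the H524 against the H82 response. With parental cells as baseline, chosen after seeing the data, H82 N1ICD gave 3 (5). Leaving out 1 library gave counts from 0 to 1 for *REST* KO against intact H82 cells without doxycycline and for H82 vector against parental cells, 0 to 2 for H524 vector against parental cells, 1 to 2 for the *REST* KO and for the *STING1* KO difference in H82 responses, and 1 to 3 for the H524 against the H82 response. The cause of these shifts was not tested.

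For single genes, 1406 of 1458 leave-one-out values stayed on the same side of the thresholds, 41 lost and 11 gained a call. Median-centering moved 67 of 227 group levels by more than their SD, 3 of them at a mean of at least 0.5, and by 0.116 at most. No paired analysis was possible because the titles number the libraries in 1 run and the groups compared share no number. Depth is unknown, so a level of 0 is only a listed 0, and *RIPK3* and *CASP1* could not be tested in any line. With 3 libraries a group, a missed threshold does not show that values were equal.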
